A study of Caenorhabditis elegans with 12 samples.

Results

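The response of *osm-9(ok1677)* worms to moderate salt stress was followed across all genes, in 8 of the 12 RNA sequencing libraries of the study. The libraries were taken by their labels: 4 *osm-9(ok1677)* libraries from 200 mM NaCl plates and 4 from 51 mM NaCl plates, with libraries of the same replicate number treated as a pair. All of the worms were late L4 larvae of strain VC1262, which carries the deletion allele *ok1677*, and each culture spent 6 h on the test plates, the 51 mM plates holding standard growth medium. The N2 wild type, with 2 libraries at each concentration, was used only to show where the mutant response differs. The strain is a single deletion line that was described as developing slightly more slowly than N2, and whole worms were sequenced, so fewer cells of a type and less RNA per cell cannot be told apart. According to the study, staging allowed for that delay, and plates inspected after the exposure showed no molting and no gravid adults.

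Worms on salty agar lose water by osmosis and then recover their volume. They make the organic osmolyte glycerol from a glycolytic intermediate by the glycerol-3-phosphate dehydrogenases GPDH-1 and GPDH-2, and the epidermis, which is covered by a collagen cuticle, switches on genes that are also used after wounding and fungal infection. OSM-9 is a TRPV cation channel of sensory cilia. The ASH neurons need it to detect strongly hypertonic surroundings, and animals without it do not avoid them.

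The libraries held between 15949889 and 21184479 counts, so that 3 counts, the smallest level taken as shown, corresponded to 0.142 to 0.188 CPM (counts scaled to library size with TMM factors). The targeted gene cannot check the labels, because a count over the whole gene does not show a partial deletion: *osm-9* had 1.67, 1.39, 2.12 and 2.02 CPM at 200 mM NaCl, against 1.89, 2.75, 2.41 and 1.33 CPM at 51 mM NaCl. Same-numbered libraries deviated together from their group means (r across 14707 loci between 0.56 and 0.83). For different numbers r lay between -0.68 and 0.52, and was above 0 only between replicates 1 and 4 and between replicates 2 and 3. The largest source of variation was not NaCl: principal component 1, with 57.3% of the variance, set replicates 2 and 3 apart from replicates 1 and 4, and component 2, with 12.9%, put all 200 mM libraries on one side of 0 and all 51 mM libraries on the other. Marker lists moved with component 1. The 6 vitellogenin (yolk protein) genes summed to 36129, 14950, 8220 and 30699 CPM at 200 mM NaCl, against 29069, 15374, 9528 and 33961 CPM at 51 mM NaCl for replicates 1 to 4, so replicates 2 and 3 were low at both concentrations. Of the tested markers of intestine (6), body wall muscle (8), neurons (10), germ line (9), sperm (52) and oocytes (15), none was called in edgeR's paired test, against 3, 0, 1, 0, 1 and 3 with a raw p under the threshold, and none by DESeq2. The ribosomal RNA locus *rrn-3.1* had 154284, 136083, 176927 and 280789 counts at 200 mM NaCl and 0 counts in all 4 libraries at 51 mM NaCl, and was set aside. N2 had 254793 and 186943 counts of it at 51 mM NaCl and 190896 and 243727 at 200 mM NaCl. The zeros were thus confined to the *osm-9(ok1677)* libraries at 51 mM NaCl, which form 1 side of the comparison. Their cause was not tested.

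Salt altered a limited part of the transcriptome, and more genes fell than rose. Of 14707 loci tested, 321 (2.18%) were higher and 550 (3.74%) lower at 200 mM than at 51 mM NaCl. These calls came from the quasi-likelihood test of edgeR, with replicate pairs as a block and a Benjamini-Hochberg threshold of 0.05. With raw p-values held to the same threshold, 1003 loci would be higher and 1450 lower. Most changes were small. The median log2 fold change was 0.59 among the called rises and -0.74 among the called falls, and 54 rises and 134 falls were at least 2-fold. All 321 rises were higher at 200 mM in each of the 4 pairs, and 535 of the 550 falls were lower in each pair. A paired test selects loci that change alike in the pairs, so this agreement is no separate support for the calls. The groups did not overlap at all for 164 of the rises and 169 of the falls. The share without overlap over all tested loci was not counted. The numbers of called loci depend on the pairing: without it the same test called 33 loci higher and 19 lower, all of them among the 871. Leaving out 1 pair gave 180 to 298 rises and 353 to 506 falls, with 180 rises and 353 falls without replicate 3 and 200 rises without replicate 4.

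**Figure D1:**
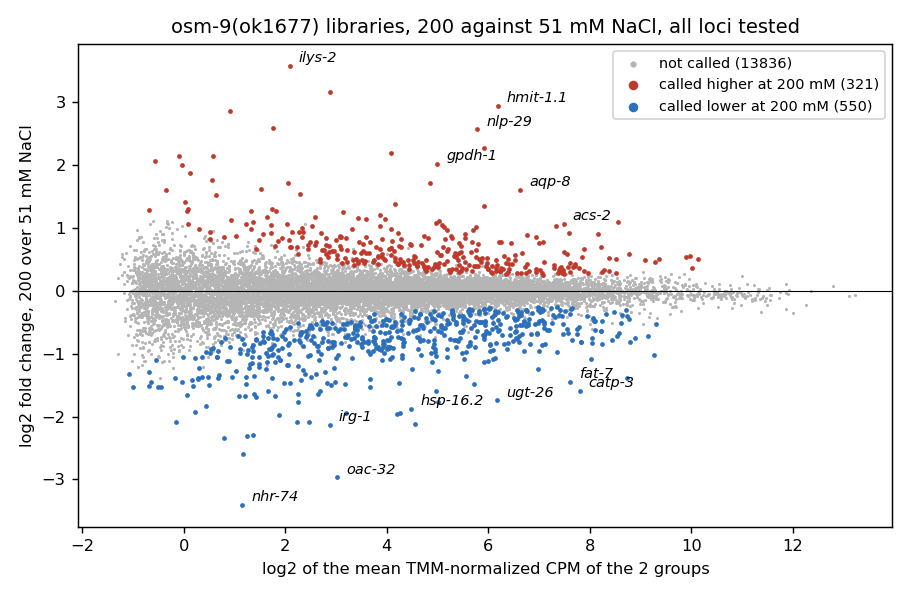
Log2 fold change of each of the 14707 tested loci in *osm-9(ok1677)*, 200 mM over 51 mM NaCl, against the log2 of its mean TMM-normalized CPM. Red points are the 321 loci called higher, blue points the 550 called lower and grey points the rest, and the named genes range between 3.58 (*ilys-2*) and -3.40 (*nhr-74*).

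Several genes for making and moving small organic osmolytes rose, where 2.18% of all loci tested were called higher and 3.74% lower. Of 13 tested genes of glycerol and trehalose metabolism, 6 were called higher and none lower (2 with a raw p under the threshold), with a median log2 fold change of 0.43 against -0.00055 for all loci tested, and of 4 genes of inositol transport and synthesis 3 were called higher. *hmit-1.1*, which encodes a proton-coupled myo-inositol transporter, had the largest rise of these. It had 122, 115, 173 and 104 CPM in replicates 1 to 4 at 200 mM NaCl, against 12.2, 17.9, 30.8 and 9.82 CPM at 51 mM NaCl. Every 200 mM library lay far above every 51 mM library, a 7.71-fold rise (log2 2.95, standard error 0.15, adjusted p = 2.44e-06). Its neighbour on chromosome V, *hmit-1.2* (18524760 to 18529156 in WBcel235), averaged 20.4 ± 5.67 CPM at 200 mM and 8.65 ± 1.52 CPM at 51 mM (SD, n = 4 each, log2 fold change 1.21). *hmit-1.3*, on chromosome III, averaged 93.3 ± 5.46 CPM at 200 mM and 54.9 ± 9.31 CPM at 51 mM (SD, n = 4 each, log2 fold change 0.78). All 3 transporter genes therefore rose, by amounts that differed, while *inos-1*, the inositol synthase gene, named after its value was seen, did not pass the test (log2 fold change -0.10, adjusted p = 0.556).

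The glycerol genes also rose by different amounts. *gpdh-1*, the salt-inducible glycerol-3-phosphate dehydrogenase, had 82.6, 54.5, 36.8 and 32.2 CPM at 200 mM NaCl, against 10.8, 16.23, 15.01 and 7.27 CPM at 51 mM NaCl. The groups did not overlap, but the 200 mM libraries were spread over more than a 2-fold range, with replicate 1 highest (4.07-fold, log2 2.02, standard error 0.21, adjusted p = 0.000313 and 0.0543 in the same test without the pairing). *gpdh-2*, the second enzyme of this step, had 233, 222, 231 and 189.9 CPM against 139, 147, 156 and 127 CPM at 51 mM NaCl. Each pair rose, by 1.54-fold over the 4 (log2 0.62, standard error 0.07, adjusted p = 0.00036). The phosphoglycolate phosphatase homologues *pgph-2* and *pgph-3*, which lie next to each other on chromosome V (5762494 to 5771768), rose as well. *pgph-2* had 63.0, 50.3, 34.4 and 30.3 CPM at 200 mM, against 14.99, 15.4, 13.4 and 9.08 CPM at 51 mM (log2 fold change 1.72, adjusted p = 1.48e-05), and replicate 1 was again the highest and replicate 4 the lowest of the 200 mM libraries. *tps-1*, a trehalose-6-phosphate synthase, rose by less (log2 0.43, adjusted p = 0.00667), and without replicate 3 its adjusted p was 0.0539. The trehalase *tre-3*, named after its value was seen, rose by 0.54 on the log2 scale (adjusted p = 0.00275).

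Of 11 tested aquaporin genes, water and glycerol channels, 1 was called. *aqp-8*, expressed in the excretory system, had 195, 142, 113 and 149 CPM at 200 mM NaCl, against 57.4, 43.1, 41.2 and 53.0 CPM at 51 mM NaCl. All 4 pairs rose about alike (3.05-fold, log2 1.61, standard error 0.08, adjusted p = 2.38e-06). The regulators of these genes had log2 fold changes between -0.73 and 0.40, with a median of 0.02. Over all loci tested, 2.18% were called higher and 3.74% lower. Among 18 tested genes known to govern the osmotic response, only *ogt-1*, the O-GlcNAc transferase needed for GPDH-1 protein accumulation under salt stress, was called: it had 237, 228, 245 and 245 CPM at 200 mM, against 180.0, 172, 191 and 182 CPM at 51 mM (log2 fold change 0.40, adjusted p = 0.00364). *osm-8*, whose loss turns on the osmotic genes without salt, had 1.71, 5.60, 9.78 and 2.07 CPM at 200 mM, against 5.03, 10.01, 9.67 and 4.09 CPM at 51 mM, and did not pass the test (adjusted p = 0.0864). Of 11 TRPV channel and sensory cilium genes none was called by edgeR or DESeq2, and 0 had a raw p under the threshold.

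**Figure D2:**
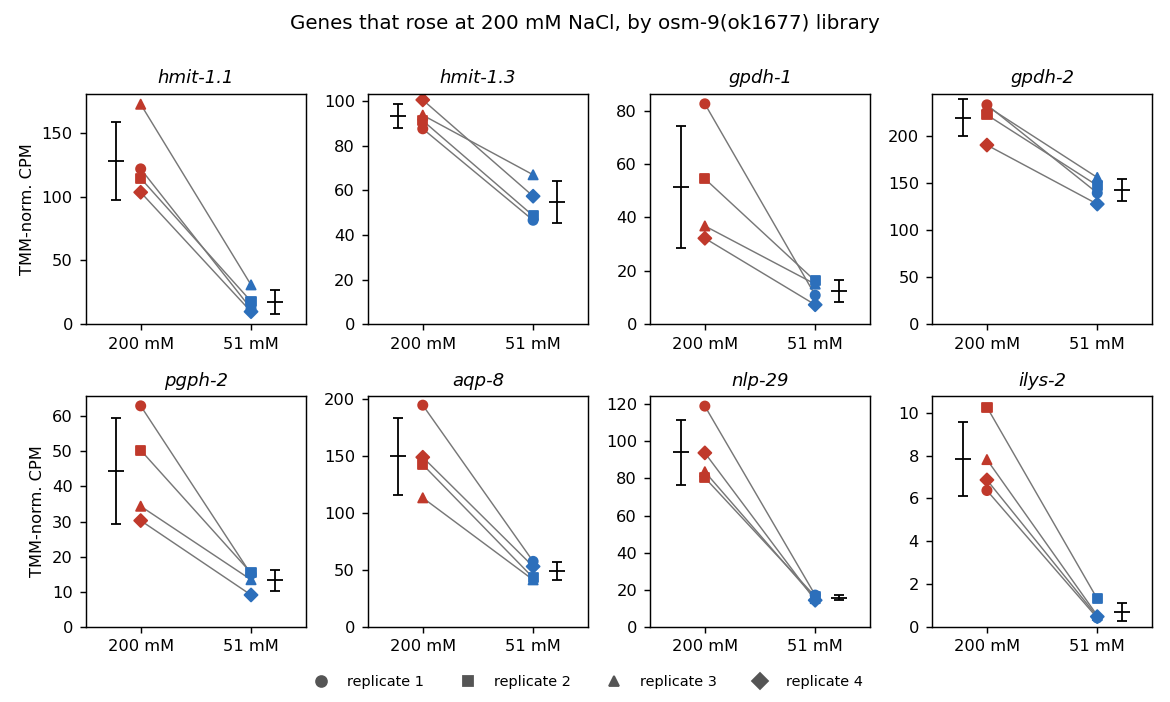
TMM-normalized CPM of 8 genes that rose, in the 4 *osm-9(ok1677)* libraries at 200 mM NaCl (red, left) and at 51 mM NaCl (blue, right). Lines join same-numbered libraries, black marks give the mean and SD of 4 libraries, every axis starts at 0, and in all 8 panels the lowest 200 mM library lies above the highest 51 mM library.

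Some, but not most, of the antimicrobial peptide genes of the epidermis rose strongly. The *nlp* peptide genes *nlp-28* to *nlp-30* are neighbours on chromosome V (3981980 to 3988316), and all 3 were called higher. *nlp-29*, the reporter gene for fungal infection, wounding and salt, had 119.01, 80.4, 83.6 and 93.8 CPM at 200 mM NaCl, against 17.1, 16.36, 15.2 and 14.3 CPM at 51 mM NaCl. The 51 mM libraries were nearly alike and the groups were far apart (5.94-fold, log2 2.57, standard error 0.10, adjusted p = 3.92e-07). *nlp-28* had 122, 92.1, 83.8 and 102 CPM against 26.7, 16.8, 17.3 and 22.5 CPM at 51 mM (log2 fold change 2.27, adjusted p = 2.84e-07), and *nlp-30* rose by 0.99 on the log2 scale. The next gene of the cluster went the other way: *nlp-27* had 75.5, 62.8, 60.4 and 79.3 CPM at 200 mM, against 115, 103, 99.0 and 155 CPM at 51 mM, a fall in all 4 pairs (log2 fold change -0.75, adjusted p = 0.000242). Over the 10 tested epidermal *nlp* peptide genes, 3 were higher and 2 lower, where 2.18% of all loci tested were higher and 3.74% lower.

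The caenacins, a related peptide family, also split. *cnc-7* had 17.7, 11.04, 8.90 and 15.1 CPM at 200 mM NaCl, against 2.49, 0.72, 0.674 and 2.18 CPM at 51 mM NaCl. It rose 8.91-fold with no overlap (log2 3.16, standard error 0.19, adjusted p = 8.84e-06), whereas 2 of the other 6 tested caenacins fell. One of these was *cnc-2* (log2 fold change -0.83, adjusted p = 0.0124, and 0.06 without replicate 3). The largest called rise belonged to *ilys-2*, an invertebrate-type lysozyme gene, with 6.37, 10.27, 7.81 and 6.86 CPM at 200 mM, against 0.415, 1.31, 0.529 and 0.478 CPM at 51 mM (11.9-fold, log2 3.58, standard error 0.20, adjusted p = 5.77e-06). Its neighbour *ilys-3* was low in every library, between 1.27 and 3.93 CPM at 200 mM and between 0.461 and 1.90 CPM at 51 mM (log2 fold change 1.13, adjusted p = 0.00811, and 0.06 without replicate 3). Of 34 tested lysozyme and saposin-like genes 5 rose and 4 fell, and of 20 fungus-induced peptide genes 1 rose and 2 fell, among them *fipr-21* (164 ± 12.2 CPM at 200 mM and 266 ± 32.1 CPM at 51 mM, SD, n = 4 each, log2 fold change -0.69). Among all loci tested, 2.18% rose and 3.74% fell.

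Most genes of a list of small heat shock and HSP70 genes fell, where 3.74% of all loci tested were called lower. The list was labelled inducible heat shock genes, but heat induction of each member was not tested here. Of 12 tested, 10 were called lower and none higher (0 also with a raw p under the threshold, and by DESeq2), with a median log2 fold change of -1.17. *hsp-16.2*, a small heat shock protein that is a common reporter of the heat shock response, had 18.2, 4.83, 7.24 and 8.25 CPM at 200 mM NaCl, against 61.8, 17.3, 29.1 and 31.5 CPM at 51 mM NaCl. Replicate 1 was the highest at both concentrations, so that the groups overlapped, but each pair fell to about the same degree (log2 fold change -1.88, standard error 0.09, adjusted p = 2.44e-06). *hsp-16.41*, its divergent neighbour on chromosome V (1804334 to 1805875 for the pair), had 26.3, 6.16, 11.8 and 12.4 CPM against 102, 18.98, 39.5 and 39.3 CPM at 51 mM (log2 fold change -1.76, adjusted p = 2.78e-06). *hsp-70*, the inducible cytosolic HSP70 gene, showed the same order of replicates, with 59.5, 15.2, 16.6 and 25.5 CPM at 200 mM, against 119.9, 40.5, 69.5 and 71.8 CPM at 51 mM (log2 fold change -1.48, adjusted p = 0.000184). *hsp-16.1* was low (0.59 ± 0.279 CPM at 200 mM and 2.12 ± 0.922 CPM at 51 mM, SD, n = 4 each) and is uncertain, since reads of this gene could also fit its near-identical copy.

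The remaining called members, named after their values were seen, were the HSP70 relatives *F44E5.4* and *F44E5.5* and the small heat shock genes *hsp-12.6*, *hsp-12.3*, *hsp-17* and *hsp-43*, with log2 fold changes of -1.38, -1.14, -1.198, -0.74, -0.35 and -0.30. Of these, *F44E5.5* lost its call without replicate 3 (adjusted p = 0.0508), *hsp-43* without replicate 3 or 4 (0.174 and 0.0822) and *hsp-17* without replicate 1, 2 or 3 (0.099, 0.0752 and 0.173). *hsp-25* and *sip-1*, the other two, did not pass the test (adjusted p = 0.487 and 0.438). Between 7 and 9 of the 10 falls were called when 1 pair was left out, 9 without replicates 2 and 3, and 10 without replicates 1 and 4. Without the pairing none was called in the quasi-likelihood test (adjusted p = 0.251 for *hsp-16.2*), and 2, *hsp-16.1* and *hsp-16.2*, were called in edgeR's exact test. The constitutive folding machinery moved far less. Of 44 tested constitutive chaperone genes 1 was called, *dnj-13* (log2 fold change -0.29, adjusted p = 0.0263, and 0.0587, 0.20 and 0.118 without replicates 2, 3 and 4), and the list's median was -0.03. Over all loci tested, 3.74% were called lower and 2.18% higher. In the endoplasmic reticulum *hsp-4*, the BiP gene that reports the unfolded protein response, had 331, 378, 388 and 307 CPM at 200 mM, against 337, 503, 426 and 316 CPM at 51 mM, and did not pass the test (adjusted p = 0.40).

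Genes for protein synthesis and bulk degradation showed no called member, with narrow ranges. The log2 fold changes lay between -0.14 and 0.02 for 78 ribosomal protein genes, between -0.12 and 0.11 for 32 proteasome loci and between 0.04 and 0.26 for 20 vacuolar ATPase subunits. With a raw p under the threshold, 0, 0 and 5 of these were called in edgeR's test, and by DESeq2 none. All 20 vacuolar ATPase subunits were above 0. The one closest to the threshold was *vha-9*, with 219.8, 194, 195.5 and 201 CPM at 200 mM, against 171, 161, 158 and 187 CPM at 51 mM (log2 fold change 0.26, adjusted p = 0.0519). Some lysosomal proteases rose. Of 22 tested cathepsin-like cysteine and aspartyl protease genes 9 were called higher and 1 lower, with a median log2 fold change of 0.20. Among all loci tested, 2.18% were called higher and 3.74% lower. *cpr-8*, a cathepsin B homologue, had 59.8, 51.6, 41.1 and 47.9 CPM at 200 mM, against 28.1, 27.8, 22.6 and 30.3 CPM at 51 mM (log2 fold change 0.88, adjusted p = 0.00023). The aspartyl protease gene *asp-8* fell with no overlap, at 11.8 ± 4.24 CPM at 200 mM and 21.6 ± 5.201 CPM at 51 mM (SD, n = 4 each, log2 fold change -0.89). The count of 9 is sensitive to single pairs, at 5 without replicate 3 and 4 without replicate 4. Of 53 tested proteostasis genes that the study listed for unstressed *osm-9(ok1677)* worms, a list it chose with the same 51 mM libraries, 5 were higher and 7 lower at 200 mM. The largest falls in that list were those of *bus-8B*, *glf-1* and *T19B10.2* (log2 fold changes -1.01, -0.89 and -0.69). At 51 mM these genes were higher in replicates 2 and 3 than in replicates 1 and 4, by 2.17, 1.29 and 1.12 on the log2 scale. The largest rise in the list was that of *asah-1*, an acid ceramidase gene, at 52.4, 52.2, 38.9 and 57.1 CPM at 200 mM, against 21.1, 30.5, 26.7 and 34.02 CPM at 51 mM (log2 fold change 0.84, adjusted p = 0.00157).

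**Figure D3:**
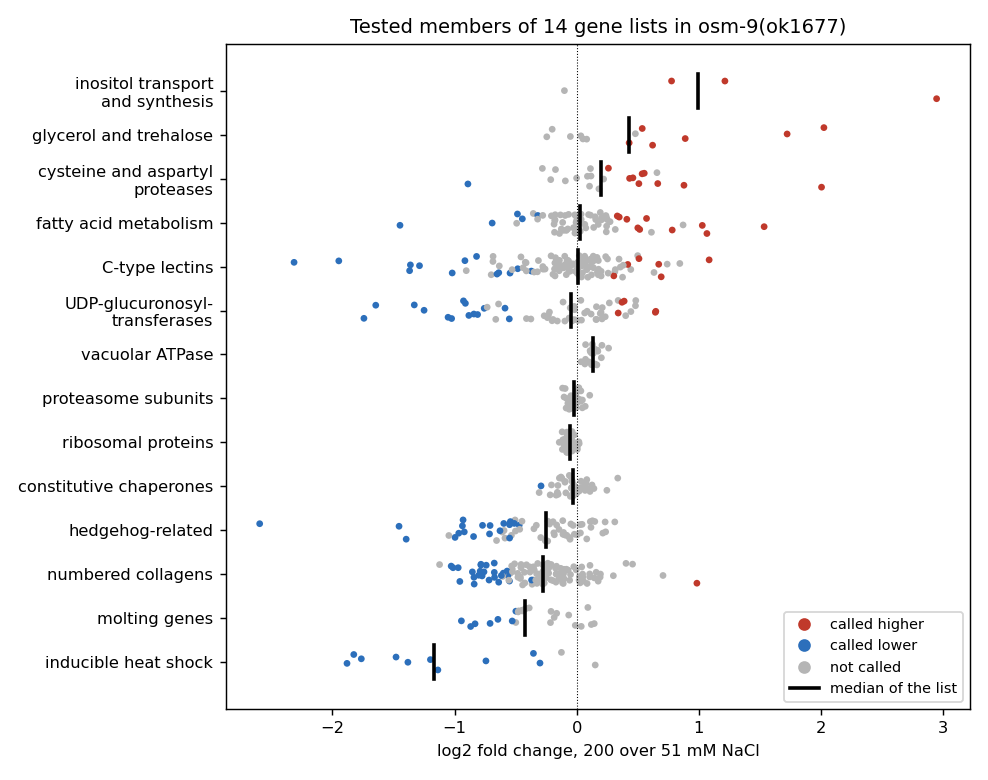
Log2 fold change, 200 mM over 51 mM NaCl in *osm-9(ok1677)*, of each tested member of 14 gene lists, with a black bar at the median of each list. Red and blue points are members called higher and lower and grey points the rest, from inositol transport (3 of 4 called higher, median 0.99) at the top to the small heat shock and HSP70 genes, labelled inducible heat shock (10 of 12 called lower, median -1.17), at the bottom.

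Part of the cuticle and molting genes fell, and several of those named here also differed between replicates 2 and 3 and replicates 1 and 4. Of 123 tested numbered collagen genes, which encode the building blocks of the cuticle, 25 were called lower and 1 higher, with a median log2 fold change of -0.28 and 22 members above 0. Of 66 hedgehog-related genes, a nematode family of secreted and membrane proteins that peak around each molt, 19 were called lower and none higher. Of 25 molting genes 7 were called lower and none higher, with a median of -0.43. For the hedgehog-related and the molting genes 0 members were higher with a raw p under the threshold, or by DESeq2. Of 26 cuticlins, other structural proteins of the cuticle, 1 was called lower and none higher (0 also with a raw p under the threshold in edgeR, and by DESeq2), with a median of -0.26. The share called lower over all loci tested was 3.74%, and the share called higher 2.18%.

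*mlt-10*, a gene expressed in the epidermis before each molt, had 14.8, 54.8, 73.9 and 32.1 CPM at 200 mM NaCl, against 26.8, 159, 146 and 40.4 CPM at 51 mM NaCl. Replicates 2 and 3 were high and replicates 1 and 4 low at both concentrations, so the groups overlapped, while each pair fell (log2 fold change -0.94, standard error 0.15, adjusted p = 0.00392). *bli-1*, a collagen of the adult cuticle, had 12.4, 53.8, 96.2 and 32.1 CPM against 38.2, 119.8, 126 and 43.2 CPM at 51 mM (log2 fold change -0.87, adjusted p = 0.013). The collagen *col-17* had 27.3, 129, 187 and 67.6 CPM at 200 mM, against 51.3, 368, 386 and 88.0 CPM at 51 mM (log2 fold change -0.97, adjusted p = 0.00245). *grl-5*, a ground-like hedgehog-related gene, had 5.54, 22.5, 33.1 and 12.56 CPM at 200 mM, against 9.14, 65.1, 66.2 and 18.9 CPM at 51 mM (log2 fold change -0.996, adjusted p = 0.00194). In each of these genes the difference between replicates 2 and 3 and replicates 1 and 4 was larger than that between the concentrations. The collagen *col-101* had the opposite layout, 519, 349, 204 and 504 CPM against 920.2, 516, 453 and 1433 CPM at 51 mM, and fell to a like degree (log2 fold change -1.01, adjusted p = 0.00128). *grd-11*, a groundhog-family gene, had the largest fall among the collagen, hedgehog-related and molting genes (log2 -2.60), which rested on 51 mM levels of 6.94 and 6.64 CPM in replicates 2 and 3 against 0.646 and 1.43 CPM in replicates 1 and 4.

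**Figure D4:**
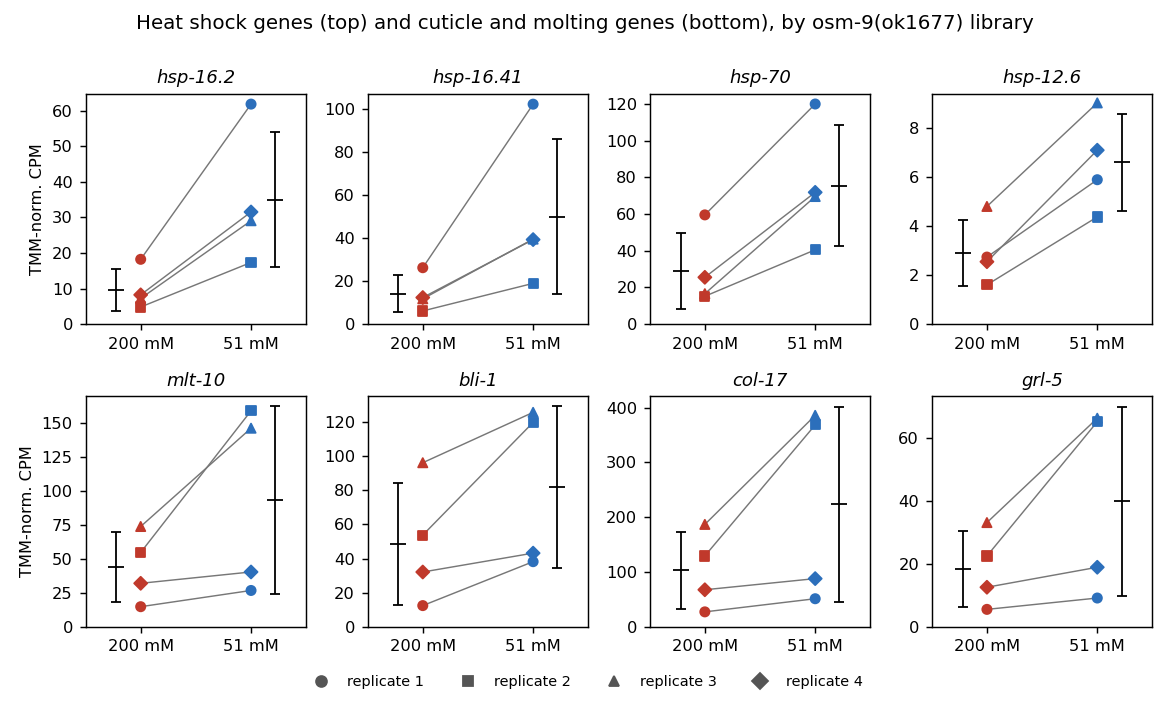
TMM-normalized CPM of 4 heat shock genes (top row) and 4 cuticle and molting genes (bottom row) in the *osm-9(ok1677)* libraries at 200 mM (red, left) and 51 mM NaCl (blue, right), with lines between same-numbered libraries and the mean and SD of 4 libraries in black. Each pair fell in all 8 panels, and in the bottom row replicates 2 and 3 (squares and triangles) lie above replicates 1 and 4 at both concentrations.

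Over all genes, the called falls and that split at 51 mM NaCl went together, but they were not measured independently. The 51 mM libraries gave both the split and the reference side of each fold change. Values high by chance in replicates 2 and 3 at 51 mM raise the split and lower the fold change. How far these shared values account for the shares below was not tested. The split at the higher concentration and the opposite split were not counted. Of the 550 called falls, 173 (31.5%) were more than 2-fold higher in replicates 2 and 3 than in replicates 1 and 4 at 51 mM NaCl, against 5 (1.56%) of the called rises and 1126 (7.66%) of all loci tested. The list medians of that difference, on the log2 scale, were 1.13 for the numbered collagens, 0.96 for the hedgehog-related genes and 0.73 for the molting genes, and -1.66 for the vitellogenins. Of 6 epidermis markers 1 was called lower (median log2 fold change -0.46). The part of developmental timing and of epidermal RNA content in these falls was not tested. The numbered collagen count was 14 without replicates 2 and 3 and 76 without replicates 1 and 4, and between 13 and 42 with 1 pair left out (13 without replicate 3, 15 without replicate 2 and 42 without replicate 1). The molting gene count was 3 without replicate 1 and without replicate 2, 11 without replicate 3, 14 without replicates 2 and 3 and 8 without replicates 1 and 4, and that of the hedgehog-related genes was 12 without replicate 2, 15 without replicates 2 and 3 and 32 without replicates 1 and 4. Without the pairing none of the 3 lists had a called member in the quasi-likelihood test, and edgeR's exact test called 1 hedgehog-related gene lower. The 6 furrow collagens, whose absence turns on osmotic genes in worms without salt, were all below 0, and none was called in edgeR's test (5 with a raw p under the threshold, 1 by DESeq2). The one closest to the threshold, *dpy-3*, had a log2 fold change of -0.60 (adjusted p = 0.0776).

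Lipid genes shifted in both directions. Of 68 tested loci of fatty acid metabolism 10 were called higher and 5 lower, where 2.18% of all loci tested were called higher and 3.74% lower. *acs-2*, an acyl-CoA synthetase for mitochondrial fatty acid oxidation that is also induced by fasting, had 147, 176, 323 and 325 CPM at 200 mM NaCl, against 62.4, 116, 163 and 119.9 CPM at 51 mM NaCl. Each pair rose, although the groups overlapped (log2 fold change 1.07, adjusted p = 0.000432). The lysosomal lipase gene *lipl-1*, also known from fasting, had 7.69, 8.71, 8.59 and 4.15 CPM at 200 mM, against 1.94, 3.27, 3.42 and 1.54 CPM at 51 mM (log2 fold change 1.53, adjusted p = 0.000296). *fat-7*, a stearoyl-CoA desaturase that fasting turns down, went the other way, with 129.7, 75.8, 78.2 and 125 CPM at 200 mM and 330.4, 198, 178 and 452 CPM at 51 mM (log2 fold change -1.45, adjusted p = 2.46e-05). *elo-5*, a fatty acid elongase named after its value was seen, fell by 0.69 on the log2 scale.

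Among detoxification genes, the UDP-glucuronosyltransferases, which attach sugars to foreign and waste compounds, fell more often than they rose. Of 60 tested, 14 were called lower and 5 higher, and 13 to 15 were lower with 1 pair left out. For comparison with the lists of this paragraph, 3.74% of all loci tested were called lower and 2.18% higher. *ugt-26* had 36.2, 26.1, 40.6 and 30.4 CPM at 200 mM NaCl, against 138, 83.6, 121 and 105 CPM at 51 mM NaCl. This was the smallest p among the falls (log2 fold change -1.74, standard error 0.08, adjusted p = 1.68e-06). The glutathione S-transferases split evenly, with 3 of 40 higher and 3 lower. The omega-class member *gsto-1* had 109, 80.6, 73.4 and 84.8 CPM at 200 mM, against 33.9, 29.8, 33.2 and 38.1 CPM at 51 mM (log2 fold change 1.36, adjusted p = 2.74e-05). Of 55 cytochrome P450 genes 5 rose and 6 fell. Among 116 C-type lectins, many of them known from responses to bacteria, 6 rose and 13 fell. *clec-76* fell to 0.539, 0.721, 0.776 and 1.12 CPM at 200 mM, against 3.69, 4.19, 3.80 and 3.98 CPM at 51 mM (log2 fold change -2.31, adjusted p = 0.000147). *irg-1*, a reporter of infection and of blocked translation, fell to 2.01, 2.44, 4.502 and 1.81 CPM, against 14.3, 8.44, 19.1 and 5.89 CPM at 51 mM (log2 fold change -2.13, adjusted p = 0.000107).

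Ion transport genes held 1 large change. *catp-3*, a gene for a P-type ATPase of the family of sodium pump catalytic subunits, had 138, 68.9, 98.3 and 149 CPM at 200 mM NaCl, against 368, 243, 323 and 394 CPM at 51 mM NaCl. The groups were far apart (log2 fold change -1.59, standard error 0.09, adjusted p = 4.18e-06), and the other 6 tested sodium pump genes lay above 0 and at most at 0.19, and were not called by edgeR (0 higher with a raw p under the threshold) or DESeq2. The chloride channel gene *clh-1* had 82.8, 68.7, 69.2 and 91.8 CPM at 200 mM, against 103, 105, 107 and 105 CPM at 51 mM (log2 fold change -0.43, adjusted p = 0.0126, and 0.0898 without replicate 3). The intestinal sodium-proton exchanger *nhx-2* rose by 0.37 on the log2 scale (adjusted p = 0.00855, and 0.0698 without replicate 3).

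Among the largest changes were also 2 rises and 2 falls in genes of other kinds. *hrg-3*, which encodes a small protein that carries heme out of the intestine, had 36.3, 29.2, 22.7 and 23.99 CPM at 200 mM NaCl, against 6.04, 5.24, 7.31 and 5.57 CPM at 51 mM NaCl (log2 fold change 2.19, adjusted p = 2.11e-05). *cpt-3*, a carnitine palmitoyltransferase homologue, had 2.06, 2.996, 4.14 and 3.99 CPM against 0.415, 0.393, 0.337 and 0.637 CPM at 51 mM (log2 fold change 2.86, adjusted p = 0.000123). The groups did not overlap in either gene. Nuclear hormone receptor genes had 6 rises and 4 falls among 185 tested, where 2.18% of all loci tested rose and 3.74% fell. *nhr-74*, among those falls, had 0.294, 0.111, 0.621 and 0.479 CPM at 200 mM, against 4.106, 4.12, 3.66 and 4.35 CPM at 51 mM. This was the largest called fall (log2 -3.40, standard error 0.30, adjusted p = 0.000127), and the count behind the 200 mM value of replicate 2 was only 2. *oac-32*, an acyltransferase homologue, had 1.62, 2.39, 1.97 and 1.28 CPM at 200 mM, against 18.04, 14.5, 17.6 and 7.27 CPM at 51 mM (log2 fold change -2.97, adjusted p = 6.52e-06).

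Called loci were often next to each other on the chromosome. Of the 321 rises, 56 (17.4%) had an adjacent tested locus that also rose, against 4.32% of all 14567 placed loci, and of 548 placed falls 99 (18.1%) had an adjacent fall, against 7.20%. Runs of 3 called neighbours included *nlp-30*, *nlp-29* and *nlp-28*, *pgph-3*, *pgph-2* and *F44E7.3* (the last lost its call without replicate 2, 3 or 4, with adjusted p = 0.112, 0.318 and 0.0889), and, among the falls, *F56D6.9*, *F56D6.8* and *dct-8* on chromosome IV (3892327 to 3895506). The longest run held 5 falls, between *T20D4.10* and *T20D4.3* on chromosome V (3400252 to 3422779). Chromosome V had the highest shares, with 3.83% of 2901 loci higher and 5.62% lower, against 1.06% and 2.42% of 2358 loci on chromosome I. It is not stated if counting was strand-specific, so neighbours that overlap on opposite strands could share reads.

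The response of N2 to the same salt step was measured with 2 pairs, in a fit of all 12 libraries. In N2, 227 of 15383 loci (1.48%) were called higher and 271 (1.76%) lower. Of the 321 *osm-9(ok1677)* rises, 310 had a log2 fold change above 0 in N2 and 114 were called higher there. Of the 550 falls, 378 had a value below 0 in N2 and 157 were called lower. Over all 14707 loci tested in both fits, 7829 were above 0 in N2 and 6878 below. A call in one strain alone does not show that the strains differ. The test of the difference called 7 loci, 0.0455% of 15383, with 4 higher and 3 lower in *osm-9(ok1677)* minus N2. In that paired fit 1450 loci had a raw p under the threshold for the difference, and without the pairing no locus was called.

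**Figure D5:**
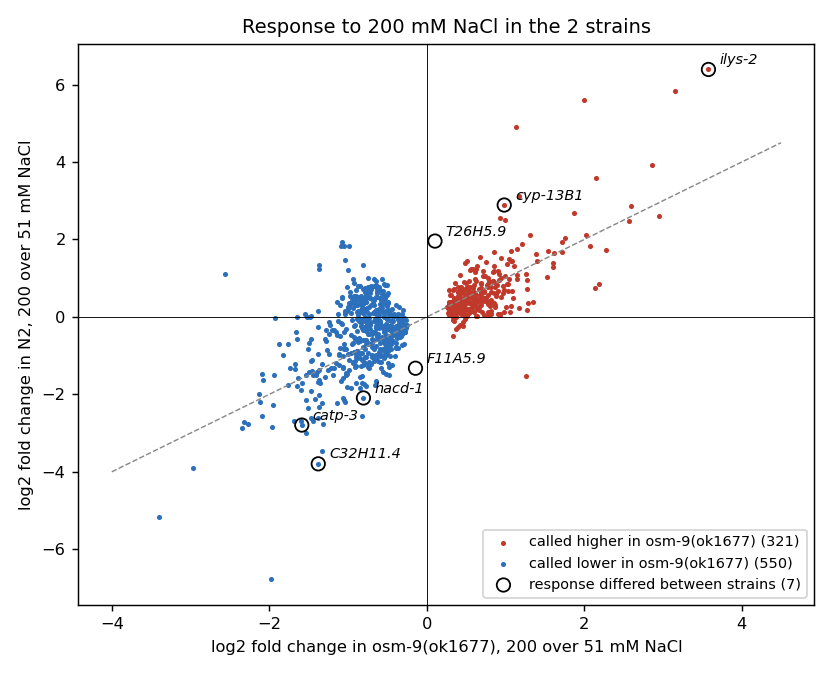
Log2 fold change at 200 mM over 51 mM NaCl in N2 (y axis) against that in *osm-9(ok1677)* (x axis), for the 871 loci called in *osm-9(ok1677)*, red where higher and blue where lower, with a dashed line where both are equal. Circles mark the 7 loci whose response differed between the strains, from *ilys-2* (3.58 in *osm-9(ok1677)* and 6.39 in N2) to *C32H11.4* (-1.38 in *osm-9(ok1677)* and -3.79 in N2).

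In all 7 the N2 response was the larger. *catp-3* fell by 1.59 in *osm-9(ok1677)* and by 2.79 in N2 on the log2 scale (difference 1.21, standard error 0.15, adjusted p = 0.0171), and *hacd-1*, a hydroxyacyl-CoA dehydrogenase homologue, fell by 0.80 in *osm-9(ok1677)* and by 2.09 in N2 (difference 1.29, standard error 0.16, adjusted p = 0.0171). The 12-library CPM of *catp-3* were 135.9, 66.9, 96.8 and 146 in *osm-9(ok1677)* at 200 mM and 37.1 and 43.6 in N2 at 200 mM, against 367, 232, 317 and 391 in *osm-9(ok1677)* at 51 mM and 245 and 317 in N2 at 51 mM. For *catp-3* the strains overlapped at 51 mM and were apart at 200 mM, as they were for *hacd-1* and *ilys-2*. For *ilys-2* the log2 fold change was 3.58 in *osm-9(ok1677)* and 6.39 in N2 (difference -2.81, adjusted p = 0.0379), and for the cytochrome P450 gene *cyp-13B1* it was 0.98 in *osm-9(ok1677)* and 2.89 in N2 (difference -1.91, adjusted p = 0.0379). *T26H5.9*, *C32H11.4* and *F11A5.9* completed the 7, and *T26H5.9* and *F11A5.9* were not called in *osm-9(ok1677)* itself. Without *osm-9(ok1677)* replicate 2, the adjusted p was 0.0596 for *C32H11.4*, 0.0716 for *F11A5.9* and 0.0779 for *ilys-2*.

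The osmolyte genes were not among the 7, and their differences varied. *gpdh-1* rose by 2.02 in *osm-9(ok1677)* and by 2.12 in N2 (difference -0.10). *hmit-1.1* rose by 2.95 in *osm-9(ok1677)* and 2.59 in N2 (difference 0.35). *gpdh-2* rose less in *osm-9(ok1677)* (0.62) than in N2 (1.24, difference -0.62). The differences were -0.66 for *hmit-1.2*, -0.36 for *tps-1*, -0.23 for *hmit-1.3*, -0.21 for *pgph-2* and 0.07 for *pgph-3*. Among the peptide genes, *nlp-29* rose by 2.57 in *osm-9(ok1677)* and 2.48 in N2 (difference 0.09). The difference was 0.55 for *nlp-28* and -1.51 for *nlp-30*. None of these differences passed the test. For the heat shock genes N2 gave smaller values: *hsp-16.2* had a log2 fold change of -1.88 in *osm-9(ok1677)* and -0.70 in N2, and *hsp-70* one of -1.48 in *osm-9(ok1677)* and 0.00 in N2, but neither difference passed the test (adjusted p = 0.0619 for *hsp-16.2* and 0.0542 for *hsp-70*). For cuticle genes the signs often differed. The median log2 fold change of the molting genes was -0.43 in *osm-9(ok1677)* and 0.77 in N2, that of the furrow collagens -0.48 in *osm-9(ok1677)* and 0.94 in N2, and that of the numbered collagens -0.28 in *osm-9(ok1677)* and 0.13 in N2. *wrt-4*, *acn-1* and *ptr-18*, named after their values were seen, were called lower in *osm-9(ok1677)* (-0.55, -0.53 and -0.51) and higher in N2 (0.85, 0.82 and 0.81), each with an adjusted p of 0.0542 for the difference. All 3 falls lost their call without replicate 1 (adjusted p = 0.0543, 0.127 and 0.0922) and without replicate 2 (0.0677, 0.117 and 0.0917), and *wrt-4* and *ptr-18* also without replicate 3 (0.102 and 0.105). *ugt-2* was the only gene called higher in *osm-9(ok1677)* (0.34) and lower in N2 (-0.49), a difference of 0.83, and its rise lost the call whichever replicate was left out (adjusted p between 0.0747 and 0.279).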

How the data were processed

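Late L4 worms were plated on 200 mM or 51 mM NaCl for 6 h and the RNA of whole worms was sequenced. The deposited values are counts per gene locus, which the authors made from reads aligned with TopHat 1.4.1 and assigned to loci with Cufflinks 2.0.1, and tested with edgeR 3.2.4. They are raw and not normalized, and whether strand was used in counting is not stated, so reads from overlapping or near-identical genes may be shared. The table lists 41420 loci, of which 3741 join several genes, and 41036 were matched to WBcel235 (Ensembl 115) for positions. There were 0 columns without a sample.

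Here the 8 *osm-9(ok1677)* libraries were fitted in R 4.3.3 with edgeR 4.0.16 (limma 3.58.1), by the quasi-likelihood test with Benjamini-Hochberg adjustment over all tested loci and a threshold of 0.05. Loci were kept by edgeR's filter (minimum count 10, minimum total 15), TMM factors were between 0.948 and 1.06, and replicate number was a block. The labels do not say that a number marks joint handling. The block was kept because same-numbered libraries deviated together from their group means (r = 0.727, 0.562, 0.831 and 0.632). Some libraries of different numbers did so too, with r = 0.519 for 200 mM replicate 1 and 51 mM replicate 4. For 200 mM replicate 3 and 51 mM replicate 2 it was 0.415. This correlation therefore does not show that equal numbers mark joint handling. The strain comparison used all 12 libraries, with the block within strain. DESeq2 1.42.0 was an alternative, with other normalization, filters, pairing and left-out replicates. The scripts were tested on simulated data. Between replicates, 40.9% to 70.9% of loci differed beyond counting noise, so no library was a copy of another. The replicates were described as independent experiments. With the block, p-values measure the spread of the differences within pairs, not the spread between replicates. The floor of 3 counts covers counting error only.

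The libraries were taken by their labels, but this comparison and the gene lists were chosen with earlier results of these data known. Named genes were the 12 largest rises and falls with the same sign in all 4 pairs, the 5 smallest p, up to 4 called members of each list (or the 2 with the smallest p), a fixed set, and the 5 smallest p of the strain difference. Genes described as named after their values were seen, and the further heat shock genes, *cyp-13B1*, *F11A5.9*, *ugt-2* and the ends of the runs of neighbours, fall outside that rule. No sequences are shown.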

Additional observations from a re-analysis of the deposited data

Results flagged for a closer look

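In 78 genes named in the text, 156 groups of 4 libraries were checked for 1 library far from the other 3, and 9 had one, where chance alone gives about 1 in 20. At 200 mM NaCl, replicate 1 was apart for *F44E5.4* (3.28 CPM, others 1.28 to 1.45), *F44E5.5* (4.36 CPM, others 1.17 to 1.71) and *hacd-1* (83.8 CPM, others 59.5 to 60.5), and replicate 2 for *tps-1* (71.1 CPM, others 103 to 109). At 51 mM NaCl, replicate 1 was apart for *elo-5* (391.9 CPM, others 156 to 179) and *hsp-25* (127.6 CPM, others 165 to 166), replicate 2 for *ilys-2* (1.31 CPM, others 0.415 to 0.529), replicate 3 for *asp-8* (29.3 CPM, others 18.3 to 19.8) and replicate 4 for *F56D6.9* (14.1 CPM, others 2.16 to 3.83).

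The test of the difference between the strains' responses (edgeR, *osm-9(ok1677)* minus N2, log2) set 7 loci apart: *T26H5.9* (-1.85), *catp-3* (1.21) and *hacd-1* (1.29), each with adjusted p = 0.0171, *C32H11.4* (2.42, adjusted p = 0.0313), and *ilys-2* (-2.81), *F11A5.9* (1.18) and *cyp-13B1* (-1.91), each with adjusted p = 0.0379. The ribosomal RNA locus *rrn-3.1*, outside the comparison, had at least 136083 counts in each *osm-9(ok1677)* library at 200 mM NaCl and 0 counts in each at 51 mM NaCl. Each N2 library, at either concentration, had between 186943 and 254793 counts.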

How the results depend on the processing

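Every one of the 871 calls kept its direction in each alternative that tested it. The number of calls depended most on the pairing. Without the replicate block there were 33 rises and 19 falls with 8 libraries, 33 and 20 with all 12, and 83 and 95 in edgeR's exact test, against 321 and 550 with the block, and 24 of 124 called genes checked singly kept their call with 8 libraries. Leaving out 1 pair gave 180 to 298 rises and 353 to 506 falls. In 2 alternatives chosen after seeing the data, there were 454 rises and 630 falls without replicates 2 and 3, and 668 and 1219 without replicates 1 and 4. Raw p-values under 0.05 gave 1003 and 1450. DESeq2 gave 280 and 527. For the difference between strains (4 higher, 3 lower), the counts were 0 and 0 without the replicate block, 6 and 6 with RLE factors, 3 and 1 with at least 10 counts in every library, 41 and 108 with DESeq2, and 3 to 13 and 3 to 65 with 1 *osm-9(ok1677)* pair left out. N2 had 13 rises and 17 falls without the block, against 227 and 271. Reversed values were those of genes that were not called: *osm-9* (-0.42 to 0.050 with 1 pair left out, above 0 without replicate 2, and 0.19 without replicates 2 and 3), *ric-4* (0.011) and *F11A5.9* (0.082), both without replicates 2 and 3. The cause was not tested in any of these. With 3 residual degrees of freedom and 2 N2 pairs, small differences could not be resolved, and N2 pairs were not left out because 1 would remain.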
